A study of Danio rerio with 4 samples.

Results

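Glycolysis turns glucose into pyruvate through a chain of cytosolic enzymes, and lactate dehydrogenase then converts pyruvate and lactate into each other. Most of these steps have several paralogous enzymes, among them forms named for skeletal and heart muscle, and zebrafish often carry 2 copies of a gene that mammals have once. Monocarboxylate transporters move lactate across the plasma membrane, and the adult heart is known both for burning fatty acids and for taking up lactate as a fuel.

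The 33 genes described here are the glucose transporters slc2a1a and slc2a1b, genes for the enzymes from hexokinase to lactate dehydrogenase, and the lactate transporters slc16a1a and slc16a3. They were chosen by name. Further paralogues, such as ldhbb, are not among the 33 and were counted in a list of other glycolysis, glucose and lactate genes. All 33 of 33 symbols were found among the 24438 symbols of the count tables, each with 1 Ensembl identifier (for example gapdh, ENSDARG00000043457, gapdhs, ENSDARG00000039914, eno3, ENSDARG00000039007, and ldha, ENSDARG00000101251). They were measured by droplet sequencing of transcript 3' ends in cells of adult zebrafish heart ventricles that had been sorted for EGFP driven by pdgfrb, a growth factor receptor gene of mural cells, fibroblasts and epicardial cells. There was 1 library per group, so no difference between libraries has a replicate check. The mutant library came from 6-month fish with both pdgfrb copies carrying the um148 allele, and the wildtype library from 6-month fish. Both carried Tg(pdgfrb:EGFP; cxcl12b:Citrine; fli1a:DsRed). The injured library came from 18-month fish 7 days after the apex of the ventricle was amputated, and the uninjured library from 18-month fish. Both carried Tg(pdgfrb:EGFP; cxcl12b:Citrine). The strain was AB in all 4, and the sources used here do not give the number of fish per library or the nature of the um148 change. The 2 pairs differ in age and in 1 transgene, so they were not compared with each other.

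Filtering left 1119 cells with 2772269 UMIs (unique molecular identifiers, each standing for 1 captured transcript) in the mutant library, 947 cells with 1983524 UMIs in the wildtype library, 1388 cells with 6675514 UMIs in the injured library and 2003 cells with 7912205 UMIs in the uninjured library. pdgfrb had 7 UMIs in the mutant library and 115 in the wildtype library, and 414 in the injured library against 211 in the uninjured library. A 3' tag does not show whether the protein is made. Cells were grouped by clustering without the 33 genes, and clusters were named from marker genes. Cardiomyocyte-like cells were the largest class although the sort was for pdgfrb: 929 cells (83.0%) in the mutant library, 700 (73.9%) in the wildtype library, 664 (47.8%) in the injured library and 1060 (52.9%) in the uninjured library. EGFP was found in 0.714% to 1.94% of cardiomyocyte-like cells and in 57.5% to 75% of cells of the fibroblast-like and epicardium-like classes. The other named classes (fibroblast-like, epicardium-like, endocardium-like, macrophage-like, T and NK-like, mural-like, thrombocyte-like) together held 166 cells in the mutant library, 229 in the wildtype library, 671 in the injured library and 913 in the uninjured library, and their mix differed between libraries. Levels below are in CPM, the gene's UMIs scaled to 1000000 UMIs of the class. Since a transcript is tagged once, at its 3' end, these levels were compared between genes without a correction for length. Reads shared by near-identical paralogues may have been dropped by the authors' counting.

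The members took up a large part of the RNA of cardiomyocyte-like cells. Their summed level there was 43919 CPM in the mutant library, 47195 CPM in the wildtype library, 40530 CPM in the injured library and 52225 CPM in the uninjured library. In the other cells it was 1513 CPM in the mutant library, 3841 CPM in the wildtype library, 3750 CPM in the injured library and 3455 CPM in the uninjured library. Every library thus had its higher sum in cardiomyocyte-like cells. In the median cardiomyocyte-like cell the members made up 4.37% of UMIs in the mutant library, 4.74% in the wildtype library, 3.99% in the injured library and 4.94% in the uninjured library. Fibroblast-like and epicardium-like cells had medians between 0.104% and 0.163%, and endocardium-like cells 0.367% in the injured library and 0.359% in the uninjured library. Nucleated erythrocyte-like cells, left out of the other cells, had sums of 77.3 to 1419 CPM. In the injured library 182 of their 298 member UMIs came from 1 of 50 cells, and without it the sum there was 583 CPM.

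gapdh, the enzyme that oxidises glyceraldehyde-3-phosphate, had the highest level of the members. In cardiomyocyte-like cells it stood at 25578 CPM in the mutant library, 24364 CPM in the wildtype library, 19116 CPM in the injured library and 29837 CPM in the uninjured library. eno3, the enolase named for muscle, had 5602 CPM in the mutant library, 5302 CPM in the wildtype library, 3961 CPM in the injured library and 5942 CPM in the uninjured library. aldoaa, an aldolase A, which splits fructose-1,6-bisphosphate, had 4711 CPM in the mutant library, 6285 CPM in the wildtype library, 6167 CPM in the injured library and 6418 CPM in the uninjured library. aldoaa was above eno3 in 3 of 4 libraries, the mutant library being the exception, and their ranges over the libraries overlapped, while gapdh lay above both in every library. tpi1b (triosephosphate isomerase) ranged from 2000 to 3005 CPM, ldhba (the lactate dehydrogenase subunit known from heart) from 1445 to 2588 CPM, aldoab from 993 to 1323 CPM and pgam2 (the phosphoglycerate mutase of muscle) from 919 to 1380 CPM. pgk1 (phosphoglycerate kinase) ranged from 666 to 961 CPM and eno1a, an enolase 1, from 562 to 935 CPM, and these overlapped. The entry of the pathway was low by comparison: hk1, the hexokinase that phosphorylates glucose, ranged from 22.2 to 44.4 CPM, and slc2a1a and slc2a1b stayed between 0.275 and 9.02 CPM. In each library 4 of the 33 members had no UMI in cardiomyocyte-like cells. hk2, slc16a1a and eno2 were at 0 in all 4 libraries, eno1b in the mutant and wildtype libraries, and pfklb in the injured and uninjured libraries.

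**Figure D1:**
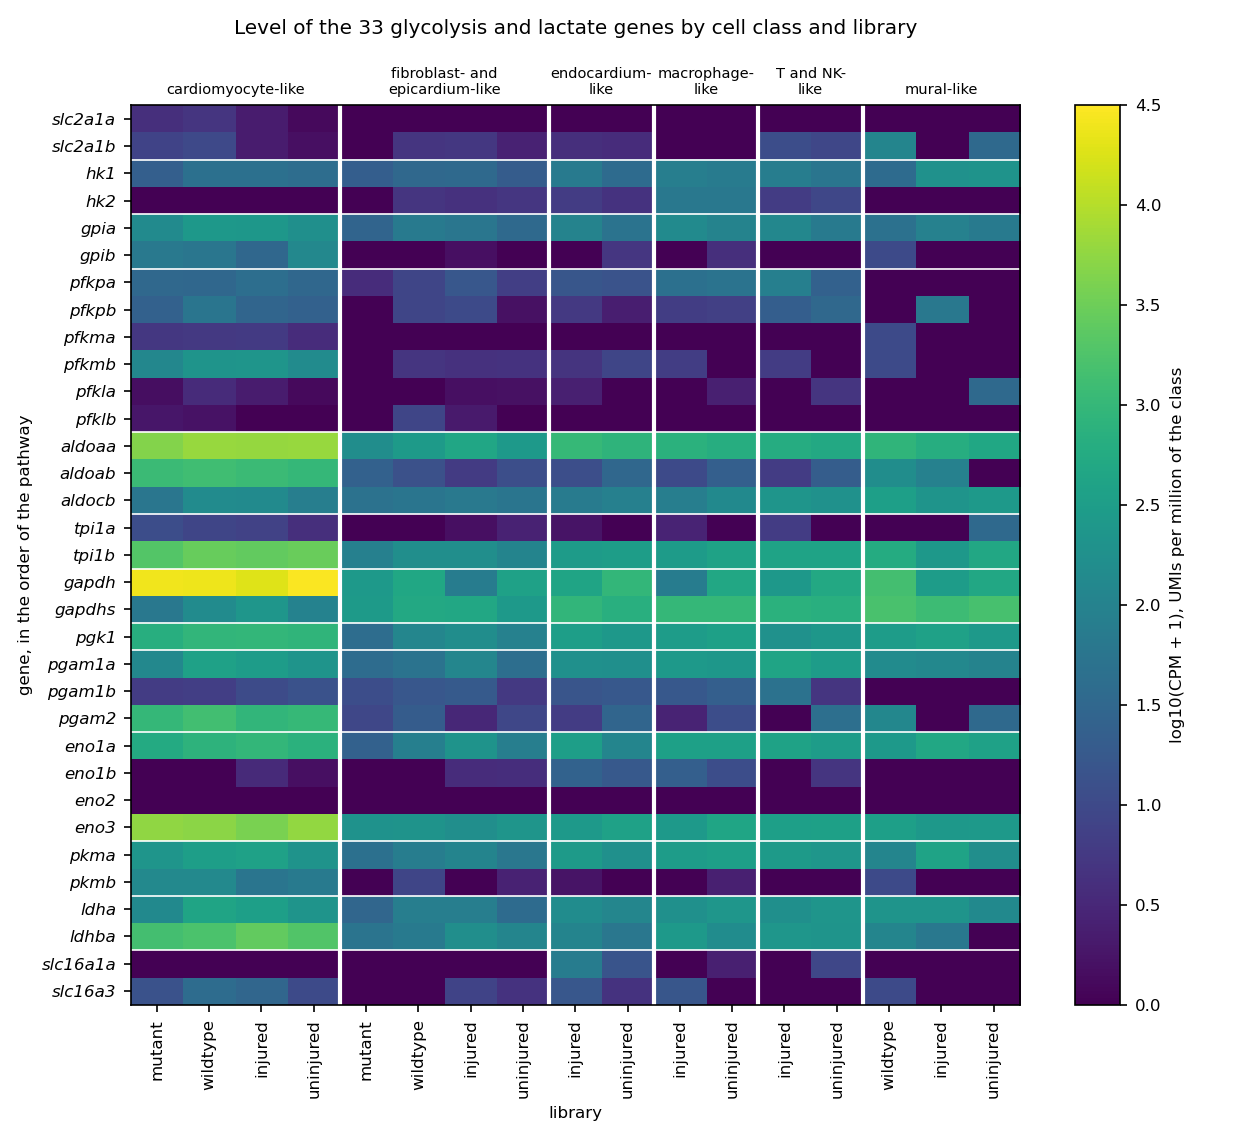
Level of the 33 members, in the order of the pathway (rows), by cell class and library (columns), as log10(CPM + 1). The gapdh row is the brightest in cardiomyocyte-like cells, at 19116 to 29837 CPM, and hk2, slc16a1a and eno2 are dark in all 4 cardiomyocyte-like columns.

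Cardiomyocyte-like cells were compared with the other cells of the same libraries with edgeR's quasi-likelihood test, on sums per library and class with the library as a block (4 libraries). Of 10034 genes tested, 24.8% were higher and 40.9% lower in cardiomyocyte-like cells at a Benjamini-Hochberg adjusted p under 0.05. Of the 33 members, 29 were tested, and 23 were higher and 3 lower. Of the lower ones, hk2 and slc16a1a had 0 UMIs in cardiomyocyte-like cells and passed the low count filter only through the other cells. The low count filter left out slc2a1a, pfkla, pfklb and eno2. The median log2 difference of the tested members was 3.92, and that of all genes -0.64. The members were not used for clustering, but the classes were drawn from other genes of the same cells, and the replicates are libraries of different groups.

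Of the members, 6 had differences of 7 or more on the log2 scale with TMM scaling. Against library totals alone, this scaling raised the differences of all genes by a median of 1.40. pgam2 was higher by 7.78 ± 0.49 (log2 difference ± SE, adjusted p = 1.66e-09, edgeR), with 919 to 1380 CPM in cardiomyocyte-like cells and 3.03 to 49.4 CPM in the other cells. The pyruvate kinase pkmb (7.50 ± 0.46), the glucose-6-phosphate isomerase gpib (7.49 ± 0.42), gapdh (7.30 ± 0.39), aldoab (7.06 ± 0.41) and the phosphofructokinase pfkmb (7.00 ± 0.37) followed, each higher in 4 of 4 libraries. eno3 (5.78 ± 0.30), pfkma (5.61 ± 0.93), ldhba (5.60 ± 0.29), aldoaa (5.19 ± 0.33) and tpi1b (4.99 ± 0.29) came next. The other called genes differed less: eno1a, pgk1, tpi1a and pfkpb by 3.92 to 3.98, slc16a3 by 3.25 ± 0.40, gpia by 3.20 ± 0.27, ldha by 2.71 ± 0.26, pfkpa by 2.68 ± 0.33, pkma by 2.62 ± 0.31, pgam1a by 2.61 ± 0.30, aldocb by 1.59 ± 0.26 and hk1 by 1.45 ± 0.27. These last 2 lost the call when library totals alone were used in place of TMM scaling (aldocb 0.18 and hk1 0.03), an alternative that lowered the median of all genes to -2.03 and that of the members to 2.52.

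gapdhs, the second glyceraldehyde-3-phosphate dehydrogenase gene, which in mammals is the form of sperm, ran the other way. In cardiomyocyte-like cells it had 62.2 CPM in the mutant library, 146 CPM in the wildtype library, 231 CPM in the injured library and 99.0 CPM in the uninjured library. The other cells had 320 CPM in the mutant library, 845 CPM in the wildtype library, 763 CPM in the injured library and 568 CPM in the uninjured library. The other cells were above cardiomyocyte-like cells in 4 of 4 libraries and the ranges did not overlap (log2 difference -0.89 ± 0.25, adjusted p = 0.00567, edgeR). Without the uninjured library the difference was -0.72 (adjusted p = 0.0744), and without the library term -0.91 (adjusted p = 0.0688), and neither was called. Against fibroblast-like and epicardium-like cells alone, where 28.9% of 8300 genes were higher and 37.9% lower, 25 members were tested, 22 were higher and 0 lower, with gapdhs at -0.31 ± 0.26 (adjusted p = 0.302) and, with library totals alone, -1.63 (called lower).

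hk2, a hexokinase known in mammals from insulin-responsive tissues, had 0 UMIs among the 9938280 UMIs of cardiomyocyte-like cells and 110 UMIs (12.4 CPM) in the other cells. slc16a1a, a monocarboxylate transporter, had 0 UMIs in cardiomyocyte-like cells and 126 UMIs (14.2 CPM) in the other cells. Pooled over the 4 libraries, the levels in other cells were 41.1-fold (hk2) and 47.1-fold (slc16a1a) a floor of 3 UMIs over all cardiomyocyte-like cells. These ratios take no account of counting error on either side, so they are not lower bounds on the difference. Of the 126 slc16a1a UMIs, 42 came from 1 endocardium-like cell of the injured library. The ratios do not hold for each library. The other cells had 5 hk2 UMIs in the mutant library and 1 in the wildtype library, and 0 slc16a1a UMIs in both. edgeR called hk2 and slc16a1a lower. Both passed the low count filter only through the other cells and could not have come out higher, so these calls are no separate support. DESeq2 did not call slc16a1a (adjusted p = 0.398), whose UMIs lay in the injured and uninjured libraries. The paralogue slc16a1b, which is not a member, was called higher in cardiomyocyte-like cells by edgeR. slc2a1b (0.12), pgam1b (0.85, adjusted p = 0.0583) and eno1b (-1.62, adjusted p = 0.0541) were not called by edgeR. Without the mutant library pgam1b was called higher (0.98, adjusted p = 0.0448) and eno1b lower (-1.62, adjusted p = 0.048), and without the wildtype library likewise (0.97 and -1.61).

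**Figure D2:**
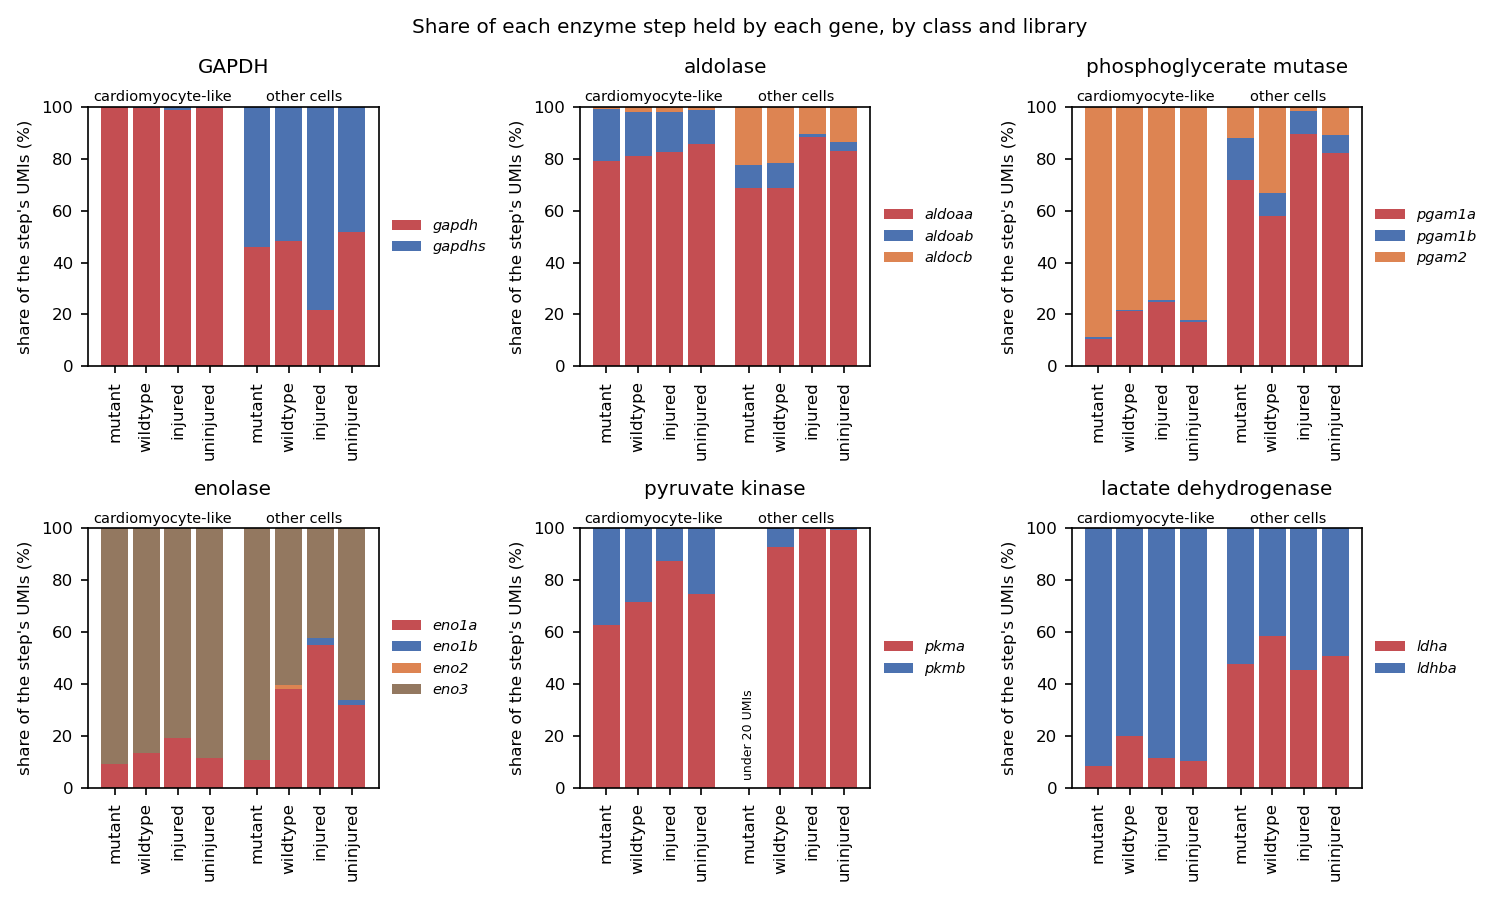
Share of the UMIs of the members of an enzyme step held by each of them (percent, stacked to 100), in cardiomyocyte-like cells and in other cells of each library. gapdh fills nearly all of its step in cardiomyocyte-like cells, where gapdhs holds 0.242% to 1.19%, and gapdhs holds 48.3% to 78.4% in the other cells.

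The shares of paralogues within a step differed between the classes for some steps and not for others, as the plot of shares by class shows. Each share is of the UMIs of the members of the step, so paralogues outside the member list are not counted. gapdhs made up 0.242% of the UMIs of its step in the cardiomyocyte-like class of mutant fish (95% Clopper-Pearson interval 0.204% to 0.286%), 0.596% in the wildtype library, 1.19% in the injured library and 0.331% in the uninjured library. In the other cells its share was 54.0% in the mutant library (47.4% to 60.4%), 51.7% in the wildtype library, 78.4% in the injured library and 48.3% in the uninjured library. These intervals and all others here cover counting error only. Of phosphoglycerate mutase UMIs in cardiomyocyte-like cells, pgam2 held 88.8% in the mutant library, 78.3% in the wildtype library, 74.5% in the injured library and 82.0% in the uninjured library. It held 1.52% to 33.3% in the other cells, where pgam1a held 57.9% to 89.6%. eno3 held 80.9% to 90.9% of enolase UMIs in cardiomyocyte-like cells. In the other cells it held 89.2% in the mutant library, 60.5% in the wildtype library, 42.3% in the injured library and 66.1% in the uninjured library, with eno1a making up most of the rest. The mutant share lies within the cardiomyocyte-like range and rests on 93 enolase UMIs.

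Pyruvate kinase UMIs of the other cells were mainly pkma. pkmb held, among cardiomyocyte-like cells, 37.2% of them in the mutant library, 28.2% in the wildtype library, 12.5% in the injured library and 25.5% in the uninjured library. It held 7.32% in the other cells of the wildtype library (3 of 41 UMIs), 0.119% in the injured library and 0.593% in the uninjured library. gpib held 11.4% to 41.7% of glucose-6-phosphate isomerase UMIs in cardiomyocyte-like cells and 0.276% to 3.70% in the other cells of the 3 libraries with at least 20 UMIs. Among lactate dehydrogenases, ldhba held 91.4% in the mutant library, 79.8% in the wildtype library, 88.3% in the injured library and 89.7% in the uninjured library in cardiomyocyte-like cells, against 41.6% to 54.5% in the other cells. These differed among themselves. In fibroblast-like and epicardium-like cells ldhba held from 44.7% (wildtype library) to 75.2% (uninjured library). In endocardium-like cells it held 40.4% in the injured library and 33.7% in the uninjured library. pfkmb held 66.0% to 74.4% of phosphofructokinase UMIs in cardiomyocyte-like cells, while in the other cells pfkpa held 61.6% in the injured library and 66.0% in the uninjured library. The leading gene was the same in both kinds of cells for several steps. aldoaa held 79.3% to 85.6% of aldolase UMIs in cardiomyocyte-like cells and 68.6% to 88.5% in the other cells. hk1 held 100% of hexokinase UMIs in cardiomyocyte-like cells, and in the other cells 82.4% in the injured library and 73.7% in the uninjured library. gpia and pkma also led their steps in both, and for triosephosphate isomerase tpi1b held 98.4% or more of it in every class and library with at least 20 such UMIs.

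Cardiomyocyte marker genes also had UMIs in the other cells, which free RNA or mixed droplets can give. Their source was not tested. The 5 cardiomyocyte markers with most UMIs stood in the other cells at 0.461% to 0.684% of their cardiomyocyte-like level in the mutant library, 2.21% to 3.03% in the wildtype library, 0.635% to 1.05% in the injured library and 1.11% to 1.71% in the uninjured library. gapdh stood there at 1.07% of its cardiomyocyte-like level in the mutant library, 3.24% in the wildtype library, 1.1% in the injured library and 2.04% in the uninjured library. Its interval reached the highest marker in the wildtype and injured libraries and lay above it in the mutant and uninjured libraries. The intervals of gpib, pfkmb, pgam2 and pkmb reached down to the highest marker's value or lay below it in all 4 libraries. Whether their UMIs in other cells are background or low expression was not tested. gapdhs stood at 331% to 578%, and eno1a, ldha, pkma and pgam1a were also above the markers in every library. In the 50% of other cells with the lowest share of cardiomyocyte marker UMIs, the gapdhs share was 67.0% in the mutant library, 81.0% in the wildtype library, 89.9% in the injured library and 77.8% in the uninjured library.

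In mural-like cells, which were few, gapdhs had 1626 CPM (175 UMIs, 92 cells) in the wildtype library, 1203 CPM (39 UMIs, 18 cells) in the injured library and 1549 CPM (46 UMIs, 19 cells) in the uninjured library. The mutant library had 0 mural-like cells of 1119 (95% Clopper-Pearson interval up to 0.329%) and so has no value.

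Some low members had most of their UMIs in a single class. hk2 lay mainly in macrophage-like cells, with 34 UMIs (63.0 CPM) in the injured library and 42 UMIs (62.9 CPM) in the uninjured library, and held 43.0% of hexokinase UMIs in the injured library and 46.2% in the uninjured library. slc16a1a was found in endocardium-like cells, with 103 UMIs (76.8 CPM) in the injured library and 20 UMIs (13.9 CPM) in the uninjured library. Of the 103, 88 came from the 24 injured cells of cluster 19, whose leading genes include plvapb (75 UMIs there) and kdrl (77 UMIs). In those 24 cells 12 had a slc16a1a UMI and 1 cell held 42 of them. In cluster 16, the main endocardium-like cluster with aqp8a.1, it had 15 UMIs in 5 injured cells and 7 UMIs in 3 uninjured cells. eno1b was spread over many cells of cluster 16, with 33 UMIs in 28 injured cells and 25 UMIs in 25 uninjured cells. Macrophage-like cells also held eno1b, with 12 UMIs in the injured library and 7 UMIs in the uninjured library. Its share of enolase UMIs in the injured library was 3.45% there and 4.13% in endocardium-like cells. In the uninjured library these shares were 1.29% and 3.42%.

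Genes of the neighbouring pathways were counted in the same class comparison, where 24.8% of 10034 genes were higher and 40.9% lower. All 10 tested genes for pyruvate entry into mitochondria were higher in cardiomyocyte-like cells, led by mpc1, a subunit of the mitochondrial pyruvate carrier (5.87 ± 0.30, adjusted p under 0.05, edgeR), and pdha1a, of pyruvate dehydrogenase (5.28 ± 0.30). All 24 tested genes of the citrate cycle and malate-aspartate shuttle were higher, led by idh2 (6.02 ± 0.32) and mdh2 (5.42 ± 0.30). Of 13 tested glycogen genes 12 were higher, among them the glycogen synthase gys1 (4.51 ± 0.35), and of 20 genes of fatty acid oxidation 17 were higher and 2 lower, with fabp3, a fatty acid binding protein, at 5.42 ± 0.32. Of 15 other glycolysis, glucose and lactate genes 8 were higher and 4 lower. bpgm, which makes 2,3-bisphosphoglycerate, was higher by 3.63 ± 0.46. pfkfb3, which makes the activator of phosphofructokinase, was lower (-2.52 ± 0.37), as was the glucose transporter slc2a3b (-3.76 ± 0.49). The pentose phosphate list had 0 higher and 2 lower of 6. Of 22 hypoxia factors and targets 4 were higher and 11 lower, with hmox1a at -4.51 ± 0.45 and vegfaa at -2.53 ± 0.39. The dissociation stress list, immediate early genes such as fosab, had 1 higher and 19 lower of 22, with summed levels of 2645 to 4200 CPM in cardiomyocyte-like cells and 28964 to 66298 CPM in the other cells. Unlike the other lists, this list was not left out of the clustering, so the classes may partly have been drawn from it. Its part in the class differences was not tested.

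The mutant and wildtype libraries were compared by class. In cardiomyocyte-like cells 2623 genes had at least 50 UMIs over both libraries, of which 15.7% were higher and 10.4% lower beyond 1.5-fold in the mutant library. Of the 33 members, 22 were measured this way, 0 were higher and 10 lower, and the median of their log2 ratios was -0.53, that of all genes 0.04. The sum of all members differed by -0.10 (log2, mutant over wildtype). Dissociation stress genes summed to 4200 CPM in the mutant library and 4006 CPM in the wildtype library, ribosomal protein genes took 19.0% of UMIs in the mutant library and 17.6% in the wildtype library, and cardiomyocyte markers had 227180 CPM in the mutant library and 212925 CPM in the wildtype library. The part of these in the result was not tested.

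The 2 genes with the lowest ratios were pgam1a and ldha. pgam1a had 123 CPM in the mutant library (276 UMIs) and 377 CPM in the wildtype library (585 UMIs), a log2 ratio of -1.62 (95% interval -1.83 to -1.41, conditional binomial). ldha, the lactate dehydrogenase subunit known from skeletal muscle and hypoxic cells, had 136 CPM in the mutant library and 417 CPM in the wildtype library (-1.61, -1.81 to -1.41). Both were thus about as far below wildtype, with more than 250 UMIs behind each value. slc16a3, the lactate exporter, had 29 UMIs (12.9 CPM) in the mutant library and 58 UMIs (37.4 CPM) in the wildtype library (-1.54). aldocb, an aldolase C, had 58.2 CPM in the mutant library and 146 CPM in the wildtype library (-1.32), and gapdhs 62.2 CPM in the mutant library and 146 CPM in the wildtype library (-1.23, -1.55 to -0.92). The others beyond 1.5-fold were pfkpb (-1.23), hk1, gpia (-0.86), pfkmb (-0.83) and pkma (-0.63). pfkmb was the 1 gene among these 10 that was also among the 6 with the largest class differences.

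The remaining 12 measured members stayed within 1.5-fold. eno1a (-0.54), tpi1b (-0.52), pgk1 (-0.48), pgam2 (-0.45), aldoaa (-0.42), ldhba (-0.19) and aldoab (-0.17) had intervals below 0, gapdh (0.07, 0.05 to 0.09) and eno3 (0.08, 0.04 to 0.12) intervals just above 0, and pkmb (-0.04), pfkpa (0.08) and gpib (0.15) intervals that held 0. Shares within steps differed too. In the mutant library ldha held 8.62% of lactate dehydrogenase UMIs (7.72% to 9.59%) and pgam1a 10.8% of phosphoglycerate mutase UMIs (9.58% to 12%). In the wildtype library ldha held 20.2% (18.8% to 21.6%) and pgam1a 21.4% (19.9% to 23.0%).

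**Figure D3:**
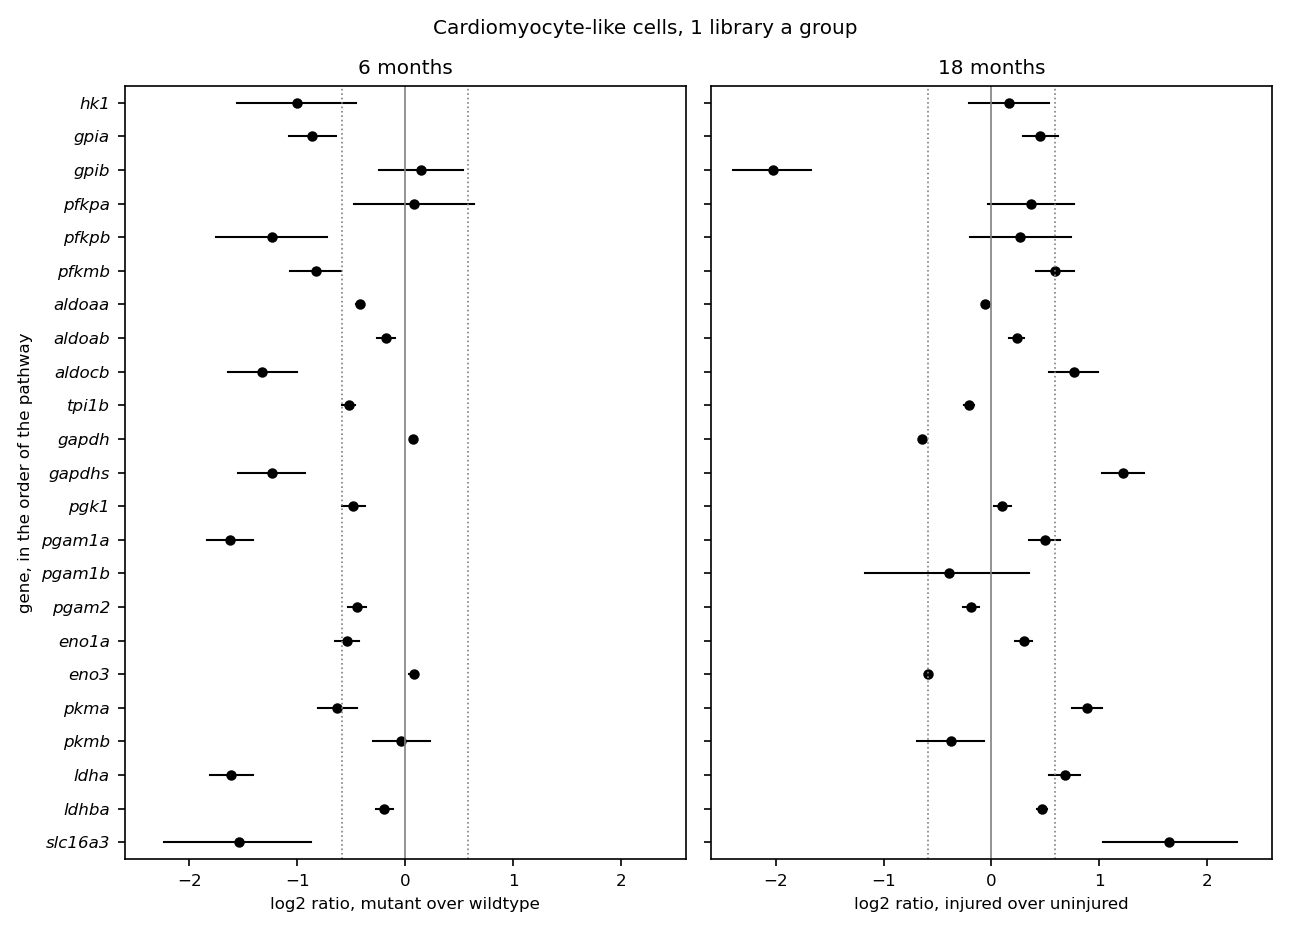
Log2 ratio of each measured member in cardiomyocyte-like cells, mutant over wildtype and injured over uninjured, with 95% conditional binomial intervals for counting error and lines at 1.5-fold. ldha and pgam1a lie at -1.61 and -1.62 in the mutant comparison, and gpib at -2.03 and gapdhs at 1.22 in the injury comparison.

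The direction was looked at within the 7 cardiomyocyte-like clusters with at least 20 cells in both libraries, an alternative chosen after seeing the data. pgam1a was lower in the mutant library in 7 of 7 clusters (-1.93 to -0.95), as were ldha (-2.25 to -0.25), pfkmb (-1.68 to -0.24), tpi1b, pgk1 and pkma. Not all intervals lay clear of 0, and in cluster 0 that of pfkmb held 0 (-1.23 to 0.64, 23 UMIs mutant and 20 wildtype). gapdhs was lower in 5 of 5 clusters with enough UMIs (-1.47 to -0.90). gapdh was higher in 7 of 7 (0.01 to 0.35) and eno3 in 6 of 7. slc16a3 was concentrated in cluster 9, 137 cells led by ttn.2, nppa and trim63a, which held 19 of its 29 UMIs in the mutant library and 35 of its 58 UMIs in the wildtype library. This cluster had the lowest sums of members, 29286 CPM in the mutant library and 26177 CPM in the wildtype library. Without it slc16a3 had 4.70 CPM in the mutant library and 15.2 CPM in the wildtype library.

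**Figure D4:**
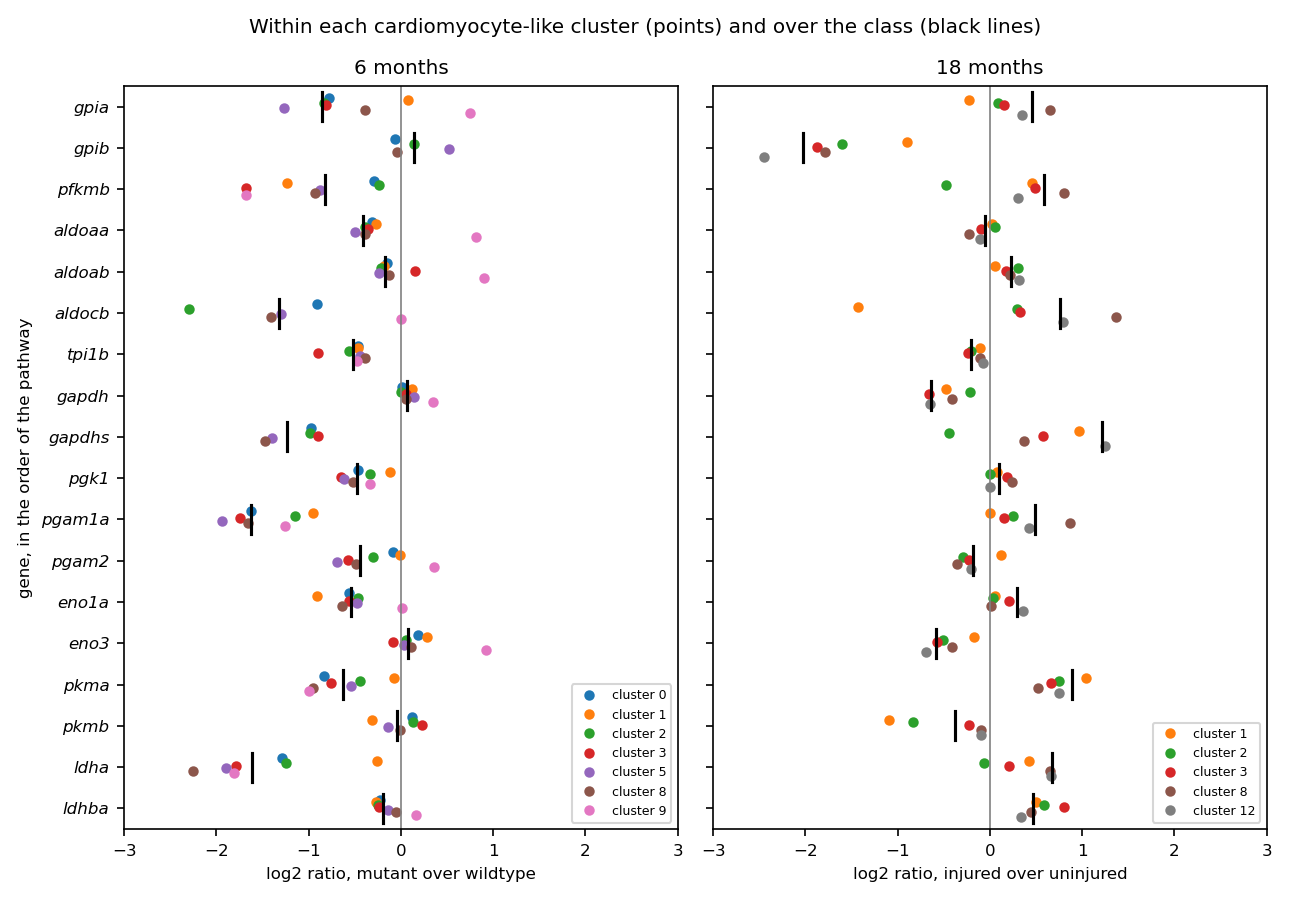
Log2 ratio of members within each cardiomyocyte-like cluster that has at least 20 cells in both libraries of a pair, 1 point per cluster, with black lines for the whole class. pgam1a and ldha lie below 0 in 7 of 7 clusters for mutant over wildtype, and gpib, gapdh and eno3 lie below 0 in 5 of 5 clusters for injured over uninjured. Intervals for counting error are not drawn.

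Of the neighbouring pathways in cardiomyocyte-like cells, glycogen genes had 0 higher and 4 lower of 9 measured in the mutant library: pygmb (-0.60) and agla (-1.14), which break glycogen down, pgm1, and gys1 with 60.4 CPM in the mutant library and 112 CPM in the wildtype library (-0.89). Fatty acid oxidation had 2 higher of 16, the carnitine palmitoyltransferases cpt1ab (0.90) and cpt1b (0.66), and 0 lower. All 10 genes of pyruvate entry stayed within 1.5-fold, with mpc1 at -0.20 and pdha1a at 0.09. Hypoxia genes had 3 higher (epas1a 1.33, igfbp1b 1.48 and adma) and 0 lower of 8, with bnip3lb at -0.18 and hif1ab at -0.11. Of all 2623 genes measured in this class, 15.7% were higher and 10.4% lower beyond 1.5-fold.

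For the mutant and wildtype libraries, the fibroblast-like and epicardium-like classes together had 7.94% of 1108 genes higher and 25.1% lower beyond 1.5-fold, and 5 members were measured, with 0 higher and 4 lower. The sum of all members differed by -0.79. gapdhs had 282 CPM in the mutant library (105 UMIs) and 524 CPM in the wildtype library (133 UMIs), a log2 ratio of -0.89 (-1.28 to -0.51). tpi1b (-0.90), aldoaa (-0.86) and gapdh (-0.80) were lower too, and eno3 was at -0.02. For gapdh, 72 of the 120 UMIs of the wildtype library came from 1 cell. With the 2 cells richest in each gene left out of its count in each library, gapdhs stayed at -0.85, while aldoaa was at -0.37, tpi1b at -0.39 and gapdh at 0.11. In the same cells fibroblast markers had 13083 CPM in the mutant library and 20579 CPM in the wildtype library, and ribosomal protein genes took 36.3% of UMIs in the mutant library and 26.3% in the wildtype library. Cardiomyocyte markers had 1596 CPM in the mutant library and 3433 CPM in the wildtype library, and 13 of 18 dissociation stress genes were lower in the mutant library (29636 CPM in the mutant library, 52384 CPM in the wildtype library). Their part in the result was not tested. TMM scaling moved the median of all genes by 0.22.

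The injured and uninjured libraries were compared the same way. In cardiomyocyte-like cells 24.2% of 3162 genes were higher and 4.71% lower beyond 1.5-fold in the injured library, and the median of all genes was 0.21. Of the 33 members 23 were measured, with 6 higher, 3 lower and a median of 0.27. The sum of all members differed by -0.37. TMM scaling lowered all ratios by 0.21, which left 3 higher (slc16a3, gapdhs and pkma) and 4 lower. At this scale the median was 0.06 for the members and 0.01 for all genes. The share of all genes beyond 1.5-fold at this scale is not given.

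The lower genes were gpib, gapdh and eno3. Of these, gapdh and eno3 lay just beyond 1.5-fold. Without mitochondrial, ribosomal protein and haemoglobin UMIs only gpib stayed beyond it. gpib had 30.8 CPM in the injured library (77 UMIs) and 126 CPM in the uninjured library (457 UMIs), a log2 ratio of -2.03 (-2.40 to -1.68). gapdh had 19116 CPM in the injured library (47751 UMIs) and 29837 CPM in the uninjured library (108472 UMIs), a log2 ratio of -0.64 (-0.66 to -0.63). eno3 had 3961 CPM in the injured library and 5942 CPM in the uninjured library (-0.59, -0.62 to -0.55). All 3 intervals lay below 0. The higher genes were gapdhs, with 231 CPM in the injured library (576 UMIs) and 99.0 CPM in the uninjured library (360 UMIs, 1.22, 1.03 to 1.41), pkma (0.89), aldocb (0.76), ldha (0.68), pfkmb (0.59) and slc16a3 (1.64). slc16a3 rested on 73 UMIs in the injured library and 34 UMIs in the uninjured library. Cluster 9 held 36 of the 73 and 9 of the 34, and without it the levels were 15.8 CPM in the injured library and 6.96 CPM in the uninjured library. ldhba (0.47), pgam1a (0.49), gpia (0.45), eno1a (0.30), aldoab (0.23) and pgk1 (0.10) had intervals above 0 within 1.5-fold, and pkmb (-0.38), tpi1b (-0.21), pgam2 (-0.19) and aldoaa (-0.06) intervals below 0. hk1 (0.17), pfkpa (0.37), pfkpb (0.27) and pgam1b (-0.40) had intervals that held 0.

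Shares within steps followed these values. gpib held 11.4% of its step in the injured library (9.07% to 14.0%) and 41.7% in the uninjured library (38.8% to 44.7%). eno1a held 19.1% of enolase UMIs in the injured library (18.4% to 19.8%) and 11.3% in the uninjured library (10.9% to 11.7%). pkmb held 12.5% of pyruvate kinase UMIs in the injured library (10.6% to 14.6%) and 25.5% in the uninjured library (22.8% to 28.3%). The lactate dehydrogenase share of ldha differed little, with 11.7% in the injured library (11% to 12.5%) and 10.3% in the uninjured library (9.62% to 11%).

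Within the 5 cardiomyocyte-like clusters that have at least 20 cells in both libraries, gpib (-2.45 to -0.89), gapdh (-0.66 to -0.21), eno3 (-0.69 to -0.17), tpi1b and pkmb were lower in the injured library in 5 of 5, and pkma (0.52 to 1.04), ldhba (0.33 to 0.80), aldoab and eno1a were higher in 5 of 5. The pkmb interval held 0 in all 5 clusters (-2.51 to 0.09 in cluster 1, -0.57 to 0.37 in cluster 12). Intervals of tpi1b and aldoab held 0 in clusters 1 and 8, and of eno1a in clusters 1, 2 and 8. That of gpib held 0 in cluster 1 and that of pkma in cluster 8. gapdhs, ldha and pfkmb were higher in 4 of 5, with cluster 2 the exception (gapdhs -0.44, ldha -0.06, pfkmb -0.48), and aldocb in 4 of 5, with cluster 1 the exception (-1.43). The intervals of these exceptions all held 0, and aldocb in cluster 1 rested on 3 UMIs injured and 20 uninjured (-3.82 to 0.32). Among the higher values, intervals also held 0 for gapdhs and pfkmb in clusters 1 and 8, ldha in clusters 1 and 3, and aldocb in clusters 2 and 3. Cluster 12, led by acta1a, acta1b, hspb11 and mustn1b, held 35.8% of cardiomyocyte-like cells in the injured library and 23.5% in the uninjured library. In this cluster gapdhs stood at 295 CPM in the injured library and 124 CPM in the uninjured library, and gapdh at 17220 CPM in the injured library and 27043 CPM in the uninjured library. Over the whole class cardiomyocyte markers had 141069 CPM in the injured library and 168675 CPM in the uninjured library, ribosomal protein genes took 29.0% of UMIs in the injured library and 25.2% in the uninjured library, and 11 of 16 dissociation stress genes were higher and 0 lower in the injured library (4101 CPM in the injured library, 2645 CPM in the uninjured library). Without mitochondrial, ribosomal protein and haemoglobin UMIs 1 member, gpib, was lower beyond 1.5-fold, and gapdh and eno3 were not. The share of all genes beyond 1.5-fold on that scale is not given. The part of stress genes in the result was not tested.

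Neighbouring pathways were counted in cardiomyocyte-like cells here too, where 24.2% of 3162 genes were higher and 4.71% lower beyond 1.5-fold. The citrate cycle list had 3 lower of 24 in the injured library, with mdh2 at -0.65, fh at -0.71 and idh2 within 1.5-fold at -0.48. Fatty acid oxidation had 2 higher and 2 lower of 16, with fabp3 at 2749 CPM in the injured library and 4878 CPM in the uninjured library (-0.83). Pyruvate entry had 0 higher and 1 lower of 10 (pdk2b, -0.79), glycogen 0 higher and 1 lower of 10 (pygma, -0.83), and the other glycolysis genes 1 higher and 1 lower of 5, with bpgm at -0.92. Hypoxia factors and targets had 3 higher of 9, hif1ab (0.84), egln3 (0.85) and p4ha2 (0.92), and 1 lower, igfbp1b (-0.79). With so few genes, this count of higher genes is near the share of all genes.

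**Figure D5:**
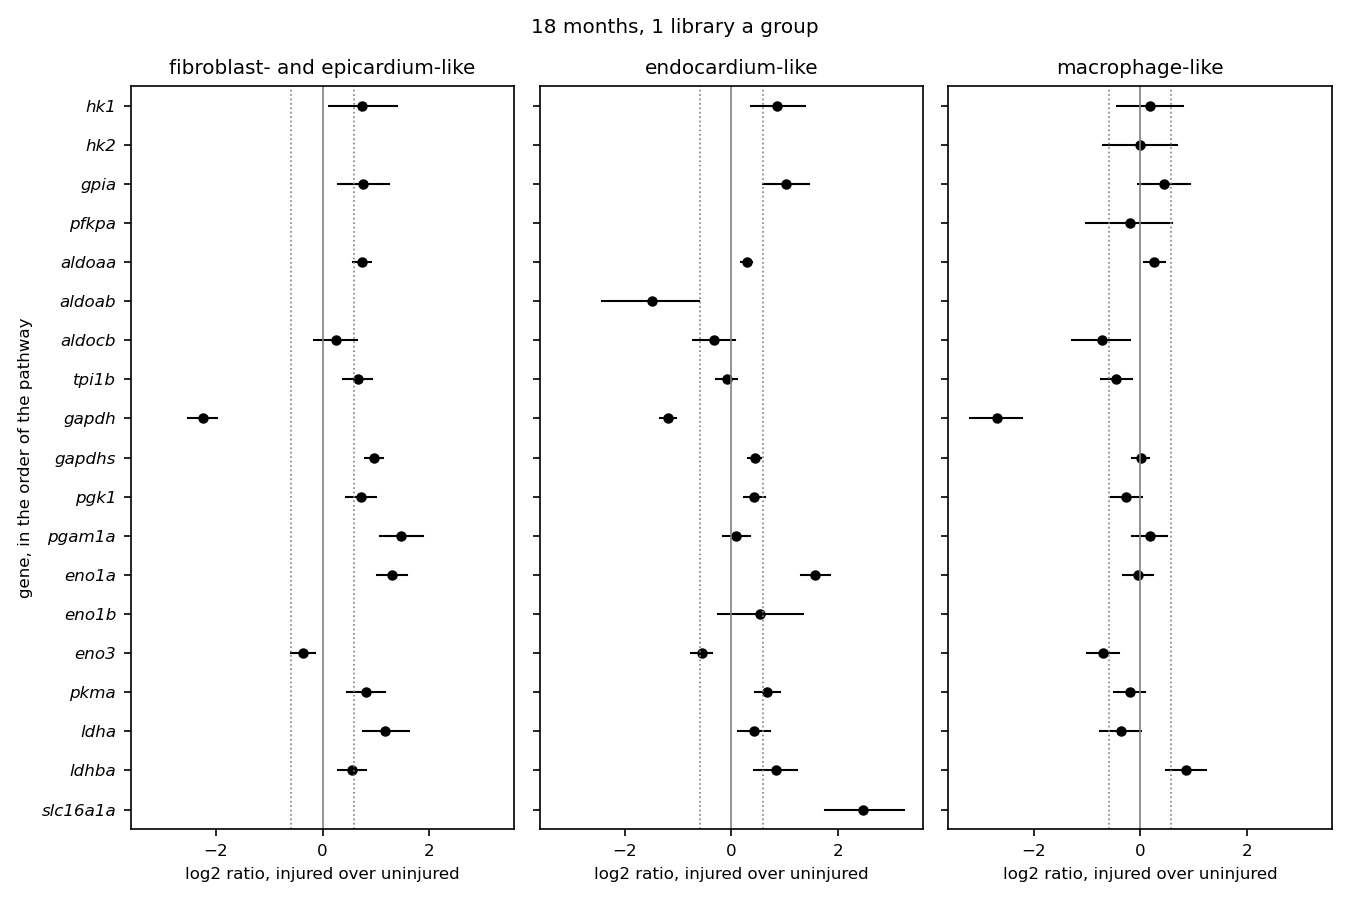
Log2 ratio, injured over uninjured, of the measured members in 3 classes (panels), with 95% conditional binomial intervals for counting error and dotted lines at 1.5-fold. gapdh lies at -2.25 in fibroblast-like and epicardium-like cells, -1.19 in endocardium-like cells and -2.70 in macrophage-like cells.

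In fibroblast-like and epicardium-like cells the injured library had 34.9% of 4416 genes higher and 5.75% lower, with a median of all genes of 0.36. Of 14 measured members 10 were higher and 1 lower, their median was 0.74, and the sum of all members differed by 0.43. eno1a had 204 CPM in the injured library (370 UMIs) and 82.9 CPM in the uninjured library (143 UMIs, log2 ratio 1.30), pgam1a 114 CPM in the injured library and 41.2 CPM in the uninjured library (1.47), and ldha 84.2 CPM in the injured library and 37.1 CPM in the uninjured library (1.18). gapdhs had 501 CPM in the injured library and 257 CPM in the uninjured library (0.96). pkma, gpia, hk1, aldoaa, pgk1 and tpi1b lay between 0.66 and 0.81, and eno3 at -0.36. In the same cells fibroblast markers had 16676 CPM in the injured library and 8368 CPM in the uninjured library, and ribosomal protein genes took 34.4% of UMIs in the injured library and 41.8% in the uninjured library. Their part in the result was not tested. A single cell gave 498 of the 4414 member UMIs of the injured library. With the 2 cells richest in each gene left out of its count in each library, 5 were higher. They were eno1a (1.17), pgam1a (1.20), gapdhs (0.70), hk1 (0.63) and ldha (0.62). With TMM scaling, which moved the median of all genes by -0.35, 4 were higher and 2 lower. The shares of all genes beyond 1.5-fold under these alternatives are not given.

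gapdh was lower beyond 1.5-fold in the injured library in each of the 4 other classes compared. The fibroblast-like and epicardium-like classes had 77.6 CPM of it in the injured library and 369 CPM in the uninjured library (-2.25). Endocardium-like cells had 426 CPM in the injured library and 970 CPM in the uninjured library (-1.19). In macrophage-like cells it had 75.9 CPM in the injured library and 492 CPM in the uninjured library (-2.70), where 1 uninjured cell held 206 of 329 UMIs, and in T and NK-like cells 250 CPM in the injured library and 523 CPM in the uninjured library (-1.07). Cardiomyocyte markers were also lower in the injured library in these classes. In the fibroblast-like and epicardium-like classes they had 1214 CPM in the injured library and 1745 CPM in the uninjured library. They had 2366 CPM injured and 5417 CPM uninjured in endocardium-like cells, 372 CPM injured and 2112 CPM uninjured in macrophage-like cells, and 835 CPM injured and 2847 CPM uninjured in T and NK-like cells. Their part in the gapdh values was not tested.

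In endocardium-like cells 11.8% of 3784 genes were higher and 7.11% lower in the injured library, and of 17 measured members 6 were higher and 2 lower. eno1a had 330 CPM in the injured library and 111 CPM in the uninjured library (1.58, 1.31 to 1.85), and gpia (1.02), hk1 (0.86), ldhba (0.83), pkma (0.67) and slc16a1a (2.47, mainly the 24 cells of cluster 19) were the other higher genes. Besides gapdh, aldoab was lower (-1.48, 15 UMIs in the injured library and 45 in the uninjured library). In macrophage-like cells 12.1% of 2118 genes were higher and 11.9% lower, and of 16 members 1 was higher, ldhba (0.86), and 3 lower, gapdh, aldocb (-0.72) and eno3 (-0.70). gapdhs was at 1005 CPM in the injured library and 1000 CPM in the uninjured library there (0.01, -0.16 to 0.17). In T and NK-like cells, where 14.5% of 897 genes were higher and 11.5% lower, gapdh was the 1 member of 12 beyond 1.5-fold.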

How the data were processed

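The authors deposited raw UMI counts of each library as a matrix of features by barcodes. Cell Ranger 4.0.0 made them, per the file headers. The submitters' processing notes name the build GRCz11, and Seurat without a role. No cell labels of the authors were used. The 33 genes, the pathway lists and the markers were chosen with earlier results of these data known. Features of 1 symbol were summed (25110 features, 24438 symbols, 518 of them from several features). Of 11795 barcodes, each with at least 500 UMIs, those with 200 or more genes and no more than 25% mitochondrial UMIs stayed in. Scrublet marked 13 of 5470 (0.238%) as doublets, a share too low for a caller that worked, and they were left out. Doublets may remain among the 5457 cells, of which 4 barcodes were shared between libraries.

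On logged counts scaled to 10000 in each cell, 1962 variable genes gave 30 components, 15 neighbours and 20 Leiden clusters at resolution 1.0 (scanpy 1.11.5, igraph 0.11.9), with no integration. Left out of these genes were the 33 members, the pathway lists other than dissociation stress, pdgfrb and the reporters, and genes of mitochondria, ribosomal proteins and haemoglobins. Clusters were named from 103 of 110 marker symbols found. The naming rule was set after seeing the data: a mean of at least 0.2, at least 3 markers at 0.25 of their top level, and 75% of cells with at least 2 UMIs. It left 1 cluster (19 cells) unnamed.

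The class test used edgeR 4.0.16 (TMM, filterByExpr, quasi-likelihood, library as block, R 4.3.3), with DESeq2 1.42.0 as an alternative. On simulated counts it called 14% of 2-fold and 97% of 4-fold changes over 9190 genes, with 4 false calls. There 100 genes changed at each fold and the rest had equal class means, so far fewer genes differed than in the data. Library pairs have 1 library a group and no test: sums as CPM, ratios with exact 95% intervals (scipy 1.17.1), and a gene with 50 or more UMIs in the pair was called beyond 1.5-fold by size alone. On simulated counts 95% of 2-fold changes were called in cardiomyocyte-like cells of the mutant pair (2623 genes) and 94% of the injury pair (3162 genes). Unchanged genes were called in 4.91% of cases in the mutant pair and 4.36% in the injury pair. With 1 library a group the spread between replicate libraries is unknown. These shares are thus not the false-call rates of the library pairs. Classes needed 20 cells in each library. A count of 0 was set against a floor of 3 UMIs. Values were printed for the members with at least 300 UMIs (21 of 33) and the leading member of each step, with the leading members of each list. List members named for being beyond 1.5-fold were chosen after their values were seen, as were clusters 9, 12, 16 and 19. Of 187 pathway symbols 180 were found. Some single genes of the pathway lists are not reported here.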

Additional observations from a re-analysis of the deposited data

Results flagged for a closer look

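aldocb differed in direction between classes in the injury comparison. Its log2 ratio, injured over uninjured, was 0.76 in cardiomyocyte-like cells and -0.72 in macrophage-like cells, and the difference between these was not tested. In macrophage-like cells it rested on 45 UMIs in the injured library and 92 in the uninjured library, 27 of them in 1 cell. The barcodes that the filters left out also held the members. Their sum there was 20299 CPM over 385 barcodes of the mutant library, 17731 CPM over 391 of the wildtype library, 6087 CPM over 1739 of the injured library and 6681 CPM over 3823 of the uninjured library. Mitochondrial UMIs made up 67.5% in the mutant library, 72.8% in the wildtype library, 89.1% in the injured library and 89.0% in the uninjured library. With mitochondrial UMIs left out of the total, the CPM sums were 62404 in the mutant library, 65078 in the wildtype library, 55908 in the injured library and 60882 in the uninjured library. On that scale kept cardiomyocyte-like cells had lower sums, 45067 in the mutant library and 48288 in the wildtype library. In the injured library they had 41618, and in the uninjured library 53825. The reason was not tested.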

How the results depend on the processing

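No paired analysis was possible because each group has 1 library and no replicate numbers, and the class test has the library as its block. Without that replicate block 0 members were called lower in cardiomyocyte-like cells than in other cells. The low count filter depends on the design and changed with it. Whether hk2 and slc16a1a were still tested there is not given. Leaving out 1 library gave 22 to 24 members higher and 1 to 4 lower against other cells, and 22 to 23 higher and 0 lower against fibroblast-like and epicardium-like cells, where 1 was lower with no filter on low counts and 1 with library totals in place of TMM.

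For mutant over wildtype, the sum of members in cardiomyocyte-like cells was -0.07 without mitochondrial, ribosomal protein and haemoglobin UMIs, -0.08 with each cell thinned to 500 UMIs, and -0.08, 0.02, -0.12, -0.15, -0.12 and 0.16 within clusters 0, 1, 2, 3, 5 and 9. gpia turned to 0.08 in cluster 1 and 0.75 in cluster 9, and aldocb to 0.00 in cluster 9. In fibroblast-like and epicardium-like cells 0 members were lower at 2-fold, 9 with at least 20 UMIs, 1 without the top cells (for each gene, the 2 cells with most of its UMIs in each library) and 0 thinned. Their sum, -0.79 in the report, was -0.58 with TMM, -0.57 without mitochondrial, ribosomal protein and haemoglobin UMIs and -0.51 without the top cells, where gapdh turned to 0.11.

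For injured over uninjured, cardiomyocyte-like cells had 2 members higher at 2-fold and 3 with TMM, and 1 lower at 2-fold and 1 without mitochondrial, ribosomal protein and haemoglobin UMIs. Their sum, -0.37 in the report, was -0.57 with TMM, -0.29 without those UMIs, -0.38 without the top cells, -0.34 thinned, -0.38 over UMIs without the members, -0.35 at up to 50% mitochondrial UMIs, -0.41 at resolution 2.0, -0.35 without cluster 9, and -0.27, -0.14, -0.40 and -0.27 within clusters 1, 2, 3 and 8. aldocb turned to -1.43 in cluster 1, and pfkmb (-0.48), gapdhs (-0.44) and ldha (-0.06) in cluster 2, each with an interval that held 0. In fibroblast-like and epicardium-like cells 3 members were higher at 2-fold, 4 with TMM, 5 without mitochondrial, ribosomal protein and haemoglobin UMIs, 5 without the top cells and 2 thinned, and 2 were lower with TMM, with at least 20 UMIs, at up to 50% mitochondrial UMIs and with doublets kept. Their sum, 0.43 in the report, was 0.07 with TMM, 0.25 without those UMIs, 0.29 without the top cells, 0.20 thinned, 0.12 at up to 50% mitochondrial UMIs and 0.05 with doublets kept.

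The gapdhs share in other cells was 76.2% in the injured library and 45.1% in the uninjured library at up to 50% mitochondrial UMIs, and 75.1% injured and 40.1% uninjured with doublets kept. In other cells with the lowest share of cardiomyocyte marker UMIs it was 67.0% in the mutant library, 81.0% in the wildtype library, 89.9% in the injured library and 77.8% in the uninjured library. The causes of these changes were not tested. Counts of members under an alternative are given without the share of all genes under it, so they cannot be set against that share. Over all alternatives 8 values of single genes reversed and 284 moved outside counting error. In the class tests 13 values gained and 6 lost the call. In the library pairs 78 of 601 values of genes beyond 1.5-fold were no longer beyond it in the same direction, and 29 values of other genes went beyond it. Depth limits the members under 50 UMIs in a class, which have no ratio.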
